A study of Mus musculus with 2 samples.

Results

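Insulin and the insulin-like growth factors signal through receptor tyrosine kinases and adaptor proteins to the FOXO transcription factors. Described here are 9 genes along that route: Igf1 (a ligand), Igf1r and Insr (the receptors), Irs1 and Irs2 (the adaptors), and Foxo1, Foxo3, Foxo4 and Foxo6 (the transcription factors). They were chosen by name, not by any measured value, but with earlier results of these data known. They are 9 of the 55536 genes in the tables. All 9 were found under their symbols and had reads in both libraries.

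The libraries were made from 300 ng of total RNA with ERCC spike-in RNAs added. The tissue was left cerebral cortex from female adult B6CASTF1/J mice, the first-generation cross of C57BL/6J and CAST/EiJ, aged 18 to 20 months. The 2 libraries, labelled biological replicates 1 and 2, form a single group with no treatment, mutant allele or second condition. The biosamples are separate entries that share 1 donor entry, so it is not clear that they came from separate animals, and the spread between them may be technical. With no contrast in the design there is no test and no p-value below. The questions are how abundant each gene was, which of its transcripts carried the reads, and how far the libraries differed.

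In this pathway a bound receptor phosphorylates IRS adaptors, which recruit PI3-kinase and so activate the kinase AKT. AKT phosphorylates FOXO proteins, which are then held in the cytoplasm by 14-3-3 proteins; with little signal they return to the nucleus and activate genes of stress resistance, cell-cycle arrest and energy metabolism. In the brain, IGF-1 and insulin act on neurons and glia, and the circulating IGF-1 comes largely from the liver.

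In both Insr and Igf1 an alternative exon changes the protein. The alternative Insr exon has 36 bases and lies at chr8:3181702-3181737 on the minus strand (GRCm38, the mm10 build), between exons 10 and 11 of Insr-201. Its length divides by 3 and all of it is coding, so it adds amino acids without shifting the frame; receptors without it are known as isoform A and those with it as isoform B. The alternative Igf1 exon has 52 bases and lies at chr10:87915298-87915349 on the plus strand, between exons 3 and 4 of Igf1-202. All of it is coding, and its length leaves a remainder of 1 on division by 3. It therefore changes the frame of the last exon and the end of the E peptide, the tail that is cut off the IGF-1 precursor. The sequences are shown because these bases set apart the transcripts compared in the isoform results below. They run 5′ to 3′ from the GENCODE M21 transcripts, with the alternative exon in capitals and 20 bases of each neighbouring exon in lower case.
Insr-203: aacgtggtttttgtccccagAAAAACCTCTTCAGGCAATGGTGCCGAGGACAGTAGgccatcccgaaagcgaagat
Insr-201: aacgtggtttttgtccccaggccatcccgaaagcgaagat
Igf1-203: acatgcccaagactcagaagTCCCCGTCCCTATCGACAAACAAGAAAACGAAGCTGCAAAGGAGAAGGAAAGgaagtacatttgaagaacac
Igf1-202: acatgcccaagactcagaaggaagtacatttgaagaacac

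Expected counts totalled 32504959 (replicate 1) and 24899781 (replicate 2), with 32357983 and 24798683 of them on genes. A gene with a count of 0 could still be present at up to 3 counts, which is 0.0927 CPM in replicate 1 and 0.121 CPM in replicate 2 (CPM being counts over the library's size), for counting error only. Markers of excitatory neurons summed to 1784 and 1846 TPM (a level per transcript length that sums to the same total in every library), of astrocytes to 771 and 818, and of oligodendrocytes to 533 and 454, with all 13 markers at 1 TPM or more in both libraries. Inhibitory neurons (515 and 446 TPM), microglia (70.8 and 64.0), endothelium (65.4 and 55.2), mural cells (27.8 and 27.3) and leptomeninges (29.4 and 24.7) also had all their markers at 1 TPM or more. Of the other tissues that a dissection could carry, red blood cell genes summed to 395 and 256 TPM and choroid plexus genes to 8.00 and 4.14 TPM, with 2 of 4 choroid plexus markers at 1 TPM or more. The liver marker Alb had 0 counts in both libraries, and Apoa2 stood at 1.33 and 1.49 TPM. Levels below come from whole tissue, in which fewer cells of a type and less RNA per cell cannot be told apart.

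All 9 genes reached 1 TPM in both libraries, a level that 58.3% of the 22015 nuclear protein-coding genes reached. Irs2 and Foxo3 were the most abundant and Igf1 the least. The median of the 9 was 7.58 ± 0.318 TPM (SD, n = 2), against 3.62 ± 0.0778 TPM over all nuclear protein-coding genes and 15.8 ± 0.375 TPM over those at 1 TPM or more in both libraries. On their means all 9 lay above the median of all coding genes, 5 of them below 10 TPM. Igf1 lay close to that median in replicate 2, at 3.68 against 3.67 TPM. In the alignment-free tables it lay below the median in replicate 2, at 5.91 against 6.515 TPM.

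**Figure D1:**
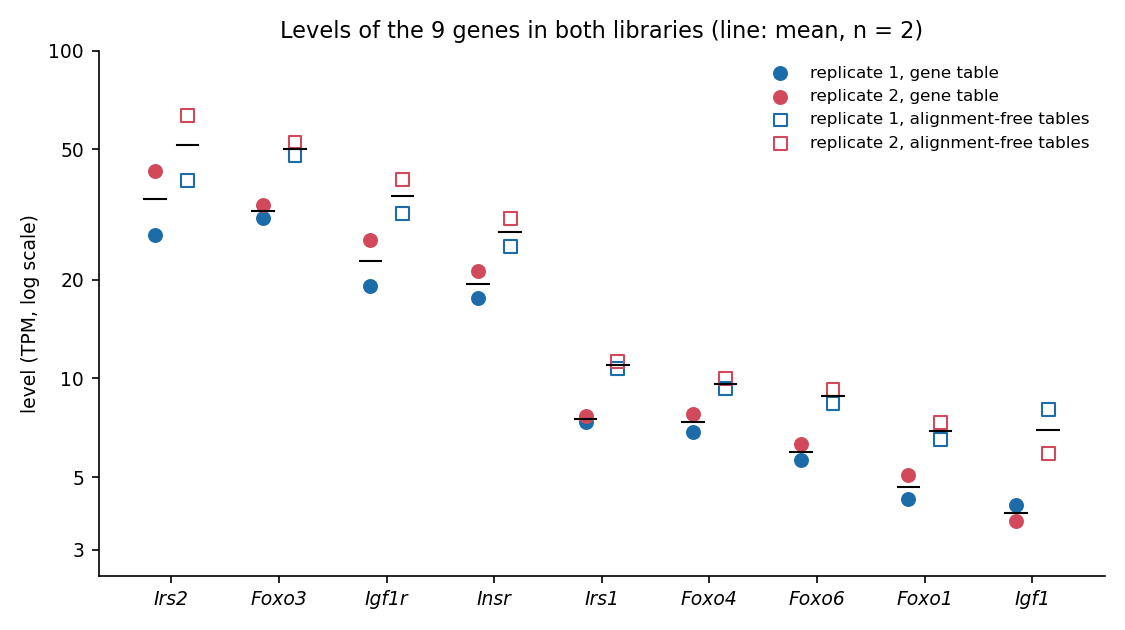
Level of each gene in TPM (log scale) in replicate 1 (blue) and replicate 2 (red), from the gene table (filled circles) and from the alignment-free tables (open squares); short lines are means of 2 libraries. Irs2, Foxo3, Igf1r and Insr lie at 17.7 TPM or more in every table and the other genes at 11.3 TPM or less; Irs2 has the widest gap between libraries.

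Igf1 encodes insulin-like growth factor 1, the ligand of the IGF-1 receptor (ENSMUSG00000020053.18, chr10:87858265-87937042, plus strand). It stood at 4.10 TPM in replicate 1 and 3.68 in replicate 2 (3.89 ± 0.297, SD, n = 2), from 401 and 332 expected counts. The bounds deposited with these TPM values ran from 3.63 to 5.58 TPM and from 3.39 to 5.19 TPM. The libraries' bounds overlap over most of their range, and the level lies above that of 50.6% of nuclear protein-coding genes. Its TPM was lower in replicate 2 while its CPM was higher, 12.4 in replicate 1 and 13.4 in replicate 2, because the deposited effective length of the gene, an average over its transcripts, rose from 4343 to 5343 bases. In the alignment-free tables Igf1 stood at 8.03 and 5.91 TPM. The gap between the kinds of table, 1.79 times on the means, was the largest among the 9 genes.

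Igf1r encodes the IGF-1 receptor (ENSMUSG00000005533.10, chr7:67952827-68233668, plus strand). It stood at 19.1 TPM in replicate 1 and 26.4 in replicate 2 (22.8 ± 5.12, SD, n = 2), from 4319 and 4090 counts. Insr encodes the insulin receptor (ENSMUSG00000005534.10, chr8:3122061-3279617, minus strand) and stood at 17.7 and 21.2 TPM (19.4 ± 2.52), from 2556 and 2271 counts. The receptor genes' ranges overlap, since Insr in replicate 2 lies above Igf1r in replicate 1, although Igf1r was the higher of the pair within each library. Insr made up 47.99% of the pair's TPM in replicate 1 and 44.6% in replicate 2. Both gene levels include transcripts annotated with a retained intron, which encode no receptor. Between the full-length coding transcripts alone, Insr-201 stood at 65.8% and 62.7% of the TPM of Igf1r-201; alignment-free tables gave 70.0% and 66.5%.

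The adaptors were far apart. Irs2 (ENSMUSG00000038894.7, chr8:10984681-11008458, minus strand) stood at 27.5 TPM in replicate 1 and 43.0 in replicate 2 (35.2 ± 10.97, SD, n = 2), from 3858 and 4514 counts, and on its mean lay above 85.4% of nuclear protein-coding genes. Irs1 (ENSMUSG00000055980.2, chr1:82233101-82291416, minus strand) stood at 7.35 and 7.68 TPM (7.52 ± 0.233), from 1498 and 1171 counts. Both encode docking proteins that couple the receptors to PI3-kinase. Irs2 made up 78.9% of their summed TPM in replicate 1 and 84.8% in replicate 2, and 78.9% and 84.9% in the alignment-free tables. Irs1 was nearly level between the libraries, so the change of the share lies with Irs2. Each of these genes has 1 annotated transcript, so no choice between isoforms enters their levels. The deposited TPM of Irs2 in replicate 2 lies just above its own deposited bounds, 40.1 to 42.6 TPM.

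Among the transcription factors Foxo3 led. It (ENSMUSG00000048756.11, chr10:42181841-42276755, minus strand) stood at 30.9 TPM in replicate 1 and 33.9 in replicate 2 (32.4 ± 2.15, SD, n = 2), from 4514 and 3614 counts. It held 64.3% ± 0.627 (SD, n = 2) of the summed TPM of the 4 FOXO genes, and 66.4% ± 0.0503 in the alignment-free tables. In both libraries Foxo3 outweighed the other 3 FOXO genes together.

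Foxo4 (ENSMUSG00000042903.8, chrX:101254528-101260873, plus strand) followed at 6.88 and 7.80 TPM (7.34 ± 0.651), 14.6% ± 0.184 of the FOXO sum. Foxo6 (ENSMUSG00000052135.8, chr4:120267079-120287349, minus strand), a FOXO gene known for its expression in brain, stood at 5.64 and 6.32 TPM (5.98 ± 0.481), 11.9% ± 0.0519 of the sum. Foxo1 (ENSMUSG00000044167.6, chr3:52268336-52353221, plus strand), known as the main FOXO factor of insulin action in liver, was the lowest of the 4 at 4.28 and 5.06 TPM (4.67 ± 0.552), 9.25% ± 0.391 of the sum. Foxo4, Foxo6 and Foxo1 kept that order in both libraries and both kinds of table, with no overlap between neighbours. Over coding transcripts alone Foxo4 and Foxo6 did overlap, since Foxo4-201 stood at 5.86 and 6.58 TPM. The gap between neighbours was small beside the level in places: in the alignment-free tables Foxo4 in replicate 1 stood at 9.29 TPM and Foxo6 in replicate 2 at 9.26 TPM. Every FOXO gene was higher in replicate 2 by TPM, yet the share of each moved by less than 1 percentage point.

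By mean TPM the order was Irs2, Foxo3, Igf1r, Insr, Irs1, Foxo4, Foxo6, Foxo1, Igf1. Neighbours whose libraries overlap in the gene table were Irs2 and Foxo3, Igf1r and Insr, and Irs1 and Foxo4. The widest step was between Insr and Irs1, from 17.7 TPM, the lower library of Insr, to 7.68, the higher library of Irs1. The narrowest step without overlap was between Foxo1 and Igf1, from 4.28 to 4.10 TPM, and in the alignment-free tables these genes overlapped and changed places. There, only Irs2 with Foxo3 and Igf1 with Foxo1 overlapped, while Igf1r lay above Insr (31.9 against 30.8 TPM at the nearest libraries) and Irs1 above Foxo4 (10.7 against 9.99 TPM).

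The 9 genes have 31 annotated transcripts. Irs1, Irs2, Foxo1 and Foxo6 have 1 each, and the other 5 genes have 27 between them, 19 of which held 5% or more of their gene's TPM in at least 1 of the 4 transcript tables. For each of the 5, the same transcript led in all 4 tables: Igf1-202, Igf1r-201, Insr-201, Foxo3-203 and Foxo4-201. These leaders were also the longest transcripts of their genes. The share of a short transcript depends on the scale, since a few reads on a short transcript give a high TPM, so shares of counts are set beside shares of TPM below.

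**Figure D2:**
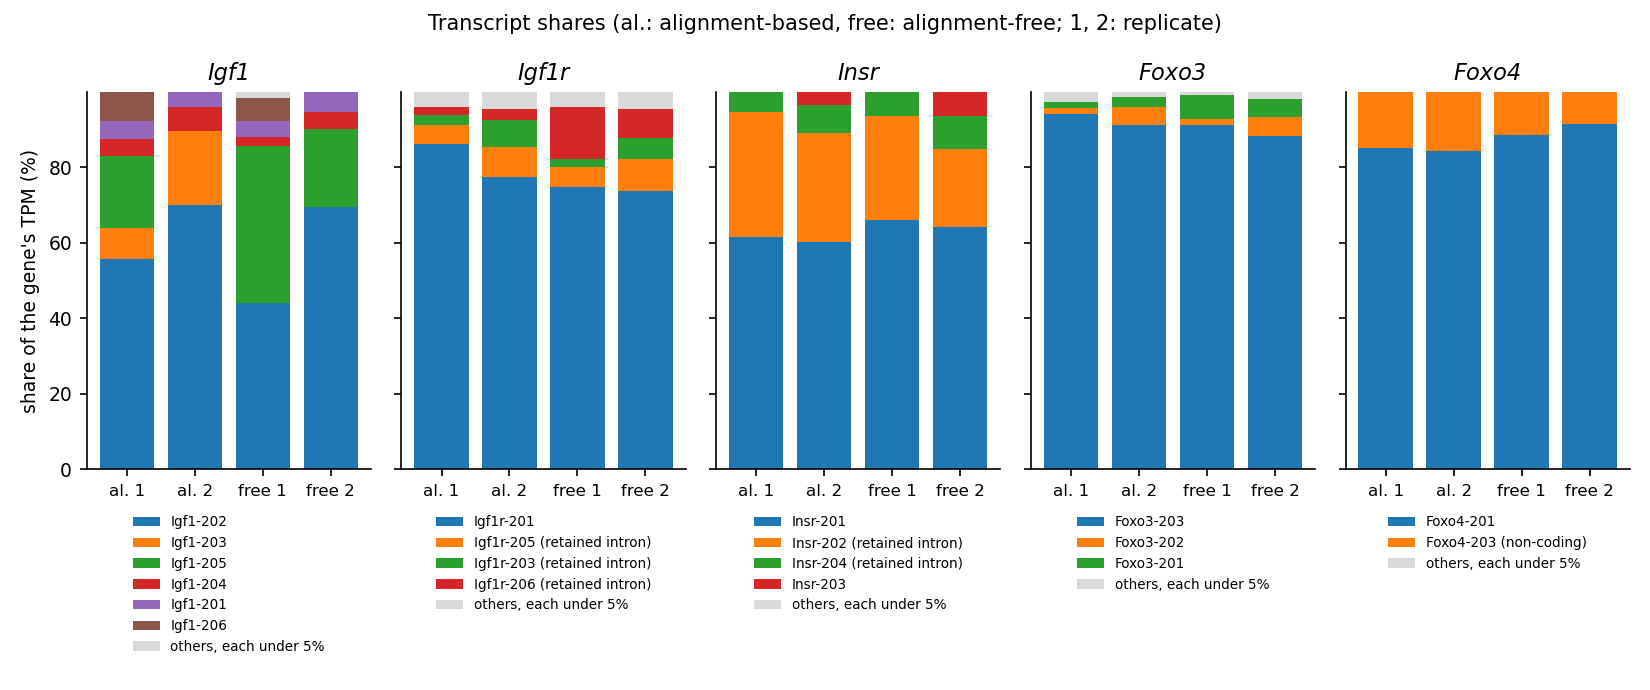
Share of each transcript in its gene's TPM, in percent, for the 5 genes with several annotated transcripts; in each panel the bars are the alignment-based tables of replicates 1 and 2 and then the alignment-free tables of replicates 1 and 2. The leading transcript (blue) is the same in all 4 bars of each gene; its share runs from 44.2% to 70.1% in Igf1 and stays at 60.3% or more in the other 4 genes.

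Insr-201, the full-length transcript without the 36-base exon, stood at 10.9 TPM in replicate 1 and 12.8 in replicate 2. Its share was 61.5% and 60.3% of the gene's TPM but 88.6% and 88.0% of its counts. Most of the remaining TPM belonged to Insr-202, a retained intron transcript of 1675 bases at the 5′ end of the gene, with 5.87 and 6.13 TPM from 209 and 163 counts. Together Insr-202 and Insr-204, both annotated as retained intron, held 38.5% and 36.2% of TPM and 11.4% and 11.7% of counts. The full-length coding form was the larger part of Insr on both scales, by more on counts than on TPM.

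The 36-base exon shown above is spliced only into Insr-203, an annotated fragment of 672 bases and 5 exons. Insr-203 had 0 counts in replicate 1 and 7.02 expected counts in replicate 2, equal to 0 and 0.730 TPM, with deposited upper bounds of 1.22 and 2.35 TPM. By the alignment-free tables it had 0 and 1.99 TPM, 0% and 6.45% of the gene. Counts were thus assigned to the spliced form in 1 library only, and they were few. Reads over the exon itself were not counted, so an assigned count of 0 does not show that the spliced form was absent. Insr-204 holds the same bases unspliced within a retained intron and took 82.0 and 103 counts. No annotated full-length transcript carries the exon, so reads from the rest of a full-length isoform B message would count toward Insr-201, and these shares are not a measure of how often the exon is included.

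**Figure D3:**
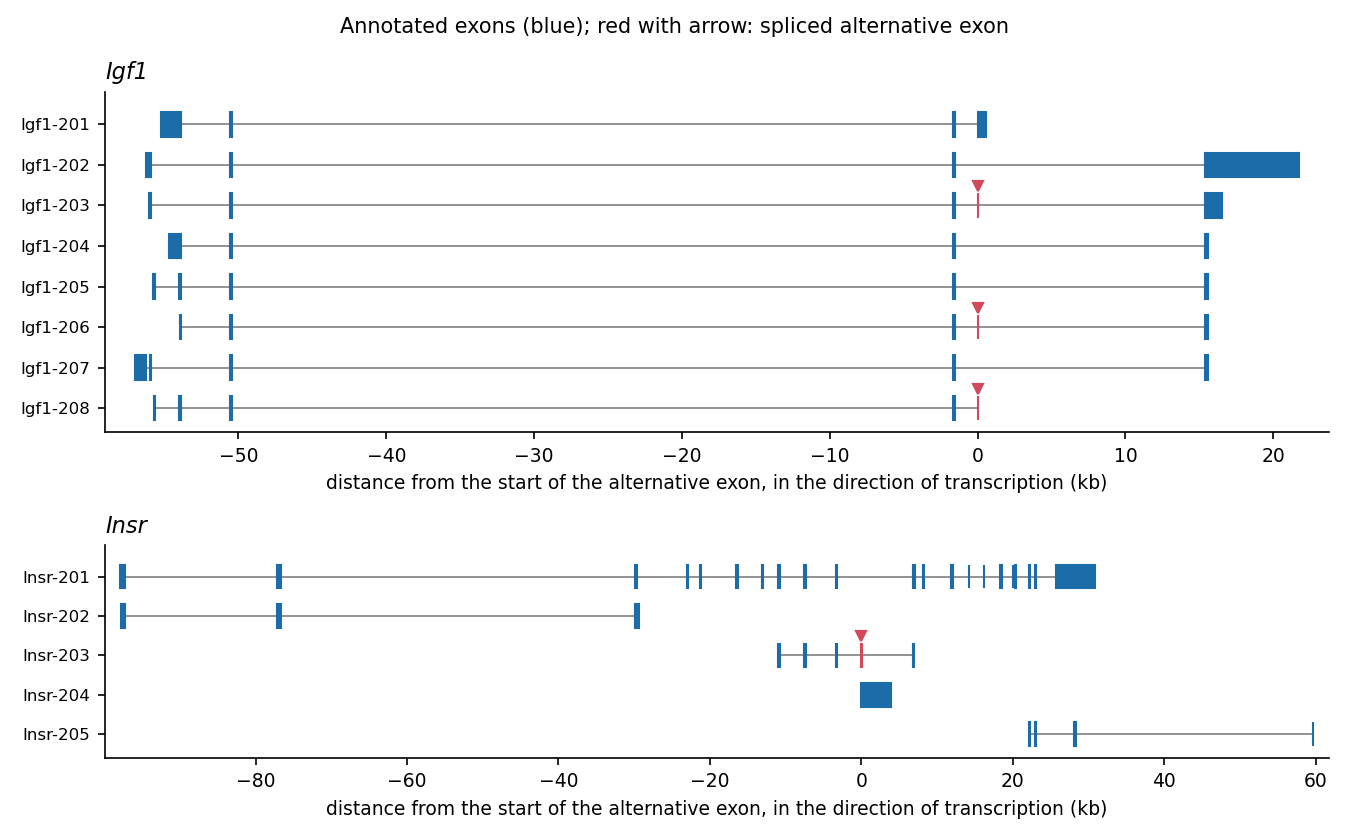
Annotated exons of the Igf1 transcripts (top) and Insr transcripts (bottom), drawn to scale along the gene against distance in kb from the start of the alternative exon, in the direction of transcription; red bars under an arrow mark the alternative exon where it is spliced. The 52-base Igf1 exon is spliced into Igf1-203, Igf1-206 and Igf1-208, and the 36-base Insr exon into the short Insr-203 alone.

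For Igf1, Igf1-202, which lacks the 52-base exon, stood at 2.28 TPM in replicate 1 and 2.58 in replicate 2. It held 55.6% and 70.1% of the gene's TPM, and of the counts 89.2% and 91.1%. The 3 transcripts into which the 52-base exon is spliced (Igf1-203, Igf1-206 and Igf1-208) summed to 0.650 and 0.720 TPM from 15.8 and 19.2 counts, 15.9% and 19.6% of the gene's TPM. On the scale of counts their share was 3.95% and 5.79%. In the alignment-free tables they had 0.487 TPM in replicate 1 and 0 in replicate 2, with Igf1-203 at 0 in both. Whether counts were assigned to the spliced form therefore depends on the kind of table, and they were few. Igf1-201, whose last exon starts with the same bases, was above 0 in all 4 tables, at 0.20 and 0.15 TPM by alignment.

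Igf1 transcripts also carry one of a pair of alternative leader exons, known as exons 1 and 2, which give different signal peptides. The 3 transcripts with leader exon 1 (Igf1-202, Igf1-203 and Igf1-207) held 63.9% of TPM in replicate 1 and 89.7% in replicate 2. The other 5 (Igf1-201, Igf1-204, Igf1-205, Igf1-206 and Igf1-208) held 36.1% and 10.3%, or 1.48 and 0.380 TPM. They are called leader exon 2 transcripts here because they lack leader exon 1, and whether all 5 share 1 leader exon was not checked. By counts the leader exon 1 transcripts held 92.2% and 96.9%. The alignment-free tables gave leader exon 1 transcripts 45.8% in replicate 1 and 69.5% in replicate 2, below leader exon 2 in replicate 1. Igf1-205, a leader exon 2 transcript of 798 bases, holds most of the leader exon 2 TPM in the alignment-free tables; it stood at 0.78 TPM (12.3 counts) and 0 TPM by alignment and at 3.33 and 1.22 TPM without it. Igf1-202 itself was higher in replicate 2, so the lower TPM of Igf1 there came from the minor transcripts.

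Igf1r-201, the only coding transcript annotated for Igf1r, stood at 16.5 TPM in replicate 1 and 20.4 in replicate 2. That was 86.2% and 77.4% of the gene's TPM and 97.3% and 95.2% of its counts. The 5 retained intron transcripts summed to 2.64 and 5.97 TPM, 13.8% and 22.6% of TPM, from 115 and 198 counts. Their counts were higher in replicate 2 although that library holds fewer reads. Igf1r-205 (0.990 and 2.12 TPM) and Igf1r-203 (0.460 and 1.92 TPM) were higher in replicate 2, and Igf1r-206 held 14.0% and 7.85% of the gene in the alignment-free tables against 2.20% and 2.77% by alignment. By counts the 5 retained intron transcripts held 2.65% and 4.83% of the gene. In the alignment-free tables they held 25.2% and 26.3% of its TPM, at 8.04 and 10.6 TPM. Part of the TPM difference in Igf1r between the libraries is therefore in transcripts that encode no receptor. How far their share rose depended on the kind of table.

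Foxo3-203 held 94.1% and 91.1% of the TPM of Foxo3, at 29.1 and 30.9 TPM, and 98.0% and 97.4% of its counts. The shorter coding transcripts Foxo3-202 (0.510 and 1.68 TPM) and Foxo3-201 (0.520 and 0.870 TPM) made up most of the rest. Foxo4-201 held 85.1% and 84.3% of the TPM of Foxo4 and 94.9% and 94.6% of its counts. The non-coding Foxo4-203 held the rest, at 1.03 and 1.23 TPM. Both FOXO genes were therefore carried mainly by 1 coding transcript, on either kind of table.

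On scaled counts the point estimates of all 9 genes were higher in replicate 2, not detectably so for every gene, and Irs2 had the largest ratio. Ratios were taken on counts scaled for library size (edgeR's TMM), with 1 library on each side, and their 95% intervals cover counting error only. Irs2 was 1.52-fold higher in replicate 2, a log2 ratio of 0.61 (0.54 to 0.67). It was the only one of the 9 past 1.5-fold, the size used here in place of a call. Of the 18246 genes whose mean count reached 10, 10.7% lay over 1.5-fold higher and 3.62% over 1.5-fold lower, so 1 of 9 is near the background. Among the 12570 genes whose mean count reached 100, which include all 9, these shares were 2.9% and 0.851%, and the ratio of Irs2 was farther from 0 than that of 96.7% of them. Irs2 lies at the threshold: by alignment-free counts its log2 ratio was 0.55, and with no filter on low counts 0.58, both under 1.5-fold, and its alternatives ran from 0.55 to 0.77.

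**Figure D4:**
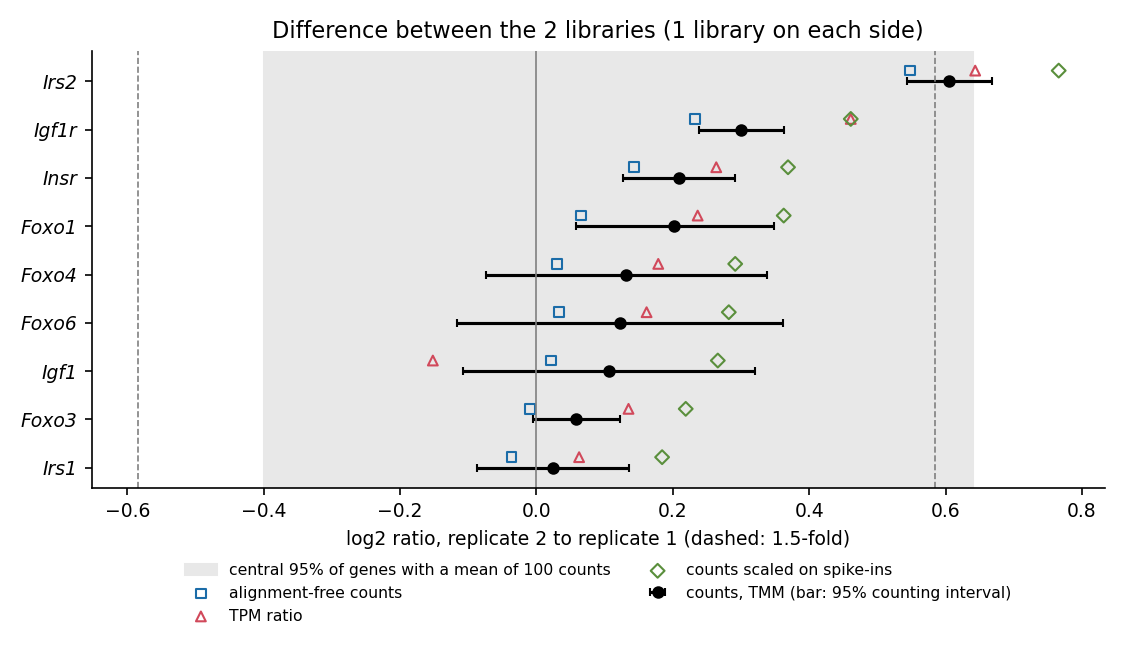
Log2 ratio of replicate 2 to replicate 1 for each gene: black points are TMM-scaled counts with 95% counting intervals, open symbols are alignment-free counts, TPM and spike-in scaling, dashed lines are 1.5-fold, and the grey band holds the central 95% of genes with a mean of 100 counts. Irs2 (0.61) lies inside the band near its right edge (0.64), and the other 8 genes lie between 0.02 and 0.30.

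Igf1r came next with a log2 ratio of 0.30 (0.24 to 0.36), followed by Insr at 0.21 (0.13 to 0.29) and Foxo1 at 0.20 (0.06 to 0.35). For these genes and Irs2 the counting interval lies above 0. For Foxo4 (0.13), Foxo6 (0.12), Igf1 (0.11), Foxo3 (0.06) and Irs1 (0.02) it includes 0, so a difference was not detectable at this depth. Counting error is not the whole error: the coefficient of variation between these libraries, estimated over the same 18246 genes, was 13.9%.

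The common direction of the 9 depended on the scale. Their median log2 ratio was 0.13, against 0.00 over all genes tested, of which 9128 lay above 0. With alignment-free counts Foxo3 (-0.01) and Irs1 (-0.04) fell below 0, as did Irs1 with no filter on low counts (-0.0033) and Igf1 by TPM (-0.15). Scaling on the spike-ins raised the median of all genes to 0.16 and that of the 9 to 0.29. It also moved the split of genes past 1.5-fold from 1958 higher and 660 lower to 2613 and 390, and alignment-free counts moved it to 3370 and 598. Beside the higher values of the 9, summed TPM was lower in replicate 2 for inhibitory neuron, oligodendrocyte, microglia, endothelium and red blood cell markers and higher for excitatory neuron and astrocyte markers; their part in these ratios was not tested.

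The other genes of the pathway, 101 in 8 lists, were widely expressed: 88 reached 1 TPM in both libraries and 4 had 0 counts in both. Of the 22015 nuclear protein-coding genes 58.3% reached 1 TPM in both libraries, and 4624 were at 0 in both. The lists hold textbook members and were not picked by level, but earlier results of these data were known. Ins1 and Ins2, which encode insulin, had 0 counts in both libraries, and Igf2, which encodes the other IGF ligand and is known from the meninges and choroid plexus of adult brain, stood at 48.5 and 32.8 TPM. Igf2 was thus higher than Igf1 in both libraries. It was also lower in replicate 2, with a log2 ratio of -0.75, as was the choroid plexus marker Ttr (-1.25; 6.69 and 2.84 TPM), though not Kl (-0.02; 1.16 and 1.16 TPM), and the leptomeningeal markers Slc6a13 (-0.68) and Slc22a6 (-0.71), while Dcn (0.29) and Col1a2 (-0.13) were not past 1.5-fold; the part of these cell types was not tested.

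Among the other receptors, Lrp1, an endocytic receptor, stood at 118 and 149 TPM, and Igf2r, which carries IGF-2 to lysosomes, at 11.5 and 12.1 TPM. Insrr, the insulin receptor-related receptor, stayed at 0.410 and 0.310 TPM. Of 13 adaptors and inhibitors at the receptors 11 reached 1 TPM, with a list median of 15.7 ± 1.03 TPM (SD, n = 2). Shc3, a neuronal SHC adaptor, stood at 88.4 and 88.7 TPM and Grb2, which links receptors to RAS, at 87.2 and 74.5 TPM. Part of the reads of Grb2 are shared with other genes. The other IRS genes were low, with Irs3 at 0.37 and 0.10 TPM (11 and 2 counts) and Irs4 at 0.210 and 0.160 TPM. Irs1 and Irs2 were thus the only IRS genes of the 4 listed that reached 1 TPM.

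IGF-binding proteins hold IGFs in the extracellular space, and their proteases release them. Of 13 such genes 8 reached 1 TPM in both libraries, beside 58.3% of all nuclear protein-coding genes. The list median, 2.74 ± 0.389 TPM, was below that of all nuclear protein-coding genes. Igfbp2 (33.9 and 23.2 TPM) and Igfbp4 (27.4 and 27.9 TPM) had the highest means in the gene table; in the alignment-free tables Igfbp4 and Igfbp6 did, at 52.5 and 47.3 TPM. Igfbp1, known as a liver gene induced by FOXO1, had 0 counts, and Igfals, which encodes the acid-labile subunit of the circulating IGF complex, had 1 and 2 counts, below the limit that a count of 0 allows. Igfbp2 (-0.59) and Ide, the insulin-degrading enzyme (-0.62; 23.7 and 16.4 TPM), were past 1.5-fold lower in replicate 2.

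**Figure D5:**
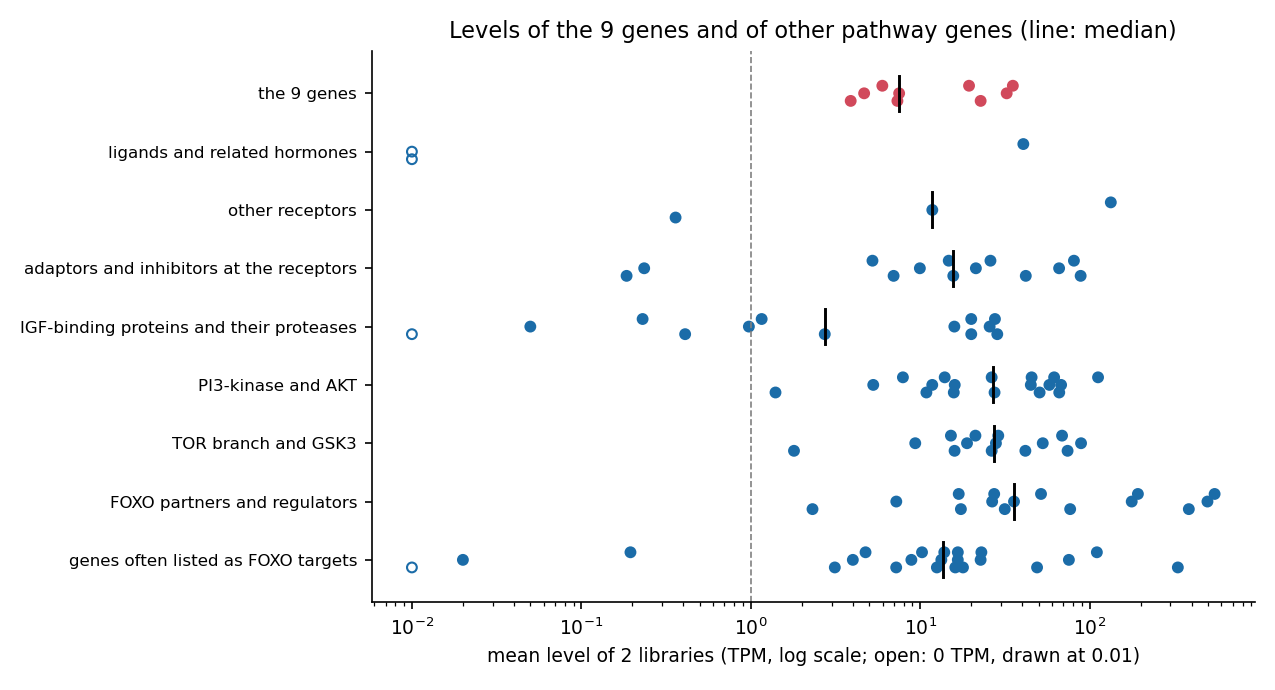
Mean TPM of 2 libraries (log scale) for each of the 9 genes (red) and for the genes of 8 pathway lists (blue); lines mark list medians, the dashed line is 1 TPM, and open circles at the left edge are genes at 0 TPM, drawn at 0.01. The 3 lists of kinases and FOXO partners lie wholly above 1 TPM, while ligands and IGF-binding proteins reach down to 0.

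Downstream, all 18 genes of the PI3-kinase and AKT list reached 1 TPM, with a median of 27.0 ± 0.718 TPM. Akt1, which encodes an AKT kinase, stood at 68.8 and 67.0 TPM, while Pik3cg, a PI3-kinase subunit known from white blood cells, was lowest at 1.36 and 1.44 TPM. All 14 genes of the TOR branch and GSK3 reached 1 TPM, with a median of 26.8 ± 2.08 TPM. The kinase genes Gsk3a (91.6 and 86.5 TPM) and Gsk3b (73.6 and 74.7 TPM) led, and Eif4ebp1, which encodes a repressor of translation, was lowest at 1.86 and 1.74 TPM. The medians of both lists were above the 15.8 TPM of coding genes at 1 TPM or more and above the levels of 7 of the 9 genes.

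All 15 FOXO partners and regulators reached 1 TPM, with a median of 35.8 ± 2.54 TPM. Ywhaz (547 and 547 TPM; part of its reads are shared with other genes) and Ywhag (494 and 499 TPM), which encode 14-3-3 proteins that bind phosphorylated FOXO, led, and Skp2, part of a ubiquitin ligase, was lowest at 2.07 and 2.56 TPM. Of 22 genes often listed as FOXO targets 19 reached 1 TPM, with a median of 13.5 ± 2.09 TPM. Gabarapl1, an autophagy gene, stood at 347 and 316 TPM and Sod2, the mitochondrial superoxide dismutase, at 116 and 105 TPM. Sod2 also shares part of its reads with other genes. The FOXO targets of liver glucose production were near 0, with G6pc at 0 counts and Pck1 at 1 count in each library, and the muscle gene Trim63 had 5 and 6 counts. Which FOXO gene, if any, acts on these targets here was not measured.

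Of the 93 pathway genes tested between the libraries 1 lay over 1.5-fold higher in replicate 2 and 3 lower, against 10.7% and 3.62% of all genes. Among the 86 with a mean of at least 100 counts these were 1 and 2, against 2.9% and 0.851% of all such genes. The gene that was higher was Cdkn1a, a cell-cycle inhibitor often listed as a FOXO target, at 14.97 and 30.5 TPM and a log2 ratio of 0.96. Igf2, Igfbp2 and Ide were the genes that were lower. By TPM the counts were 1 and 0, and with spike-in scaling 3 and 1. The median log2 ratio of the 93 genes was -0.03, and 40 of them lay above 0.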

How the data were processed

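Both libraries belong to 1 group, per the labels. Each has a gene table and an alignment-based transcript table, made from a transcriptome alignment, and an alignment-free transcript table, made from the reads with an index, per the text deposited with each library, which also gives build mm10 and GENCODE M21. For the aligner and quantifiers, names and versions were not given in the sources used here. The deposited alignment-based tables hold expected counts, not normalized, and TPM; estimated counts and TPM come from the deposited alignment-free tables. TPM is taken over genes, 97 spike-ins and 26248 short-RNA entries, and nuclear protein-coding genes hold 44.0% and 44.2% of it in replicates 1 and 2 (74.6% and 75.2% in the alignment-free tables). Spike-ins took 0.452% and 0.406% of counts; they and the short-RNA entries stayed out of library sizes. The level of the deposited TPM bounds is not stated, and the handling of CAST/EiJ variants is not given in the sources used.

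Genes were joined by identifier, and positions, exons and sequences came from GENCODE M21, which held all 55536 genes. For ratios, expected counts were rounded, genes under a mean of 10 counts removed, TMM scaling applied (edgeR 4.0.16; DESeq2 1.42.0 as an alternative; R 4.3.3, Python 3.11.15), and log2 CPM with prior count 2 subtracted; intervals are exact binomial at 95%. On simulated libraries standing for replicate 2 against replicate 1 (18246 genes, 200 changed), a spread set at 10% was recovered as 10.1%. Errors of the log2 ratios there were taken as medians over groups of genes given the same fold, and the largest was 0.111. The log2 ratios of Igf1 (0.106), Foxo3 (0.06) and Irs1 (0.02) are below even that. A median over a group is not the error of a single gene, which can be larger, so a ratio above 0.111 is not thereby beyond error. Recovery at the 13.9% estimated between these libraries was not tested. The 9 genes and all lists were chosen with earlier results of these data known. Named are the 9 genes, transcripts at 5% or more of their gene or with an alternative exon, and of each pathway list the 2 most and 1 or 2 least abundant genes and those past 1.5-fold; single markers and Igfbp6 were chosen after their values were seen. One gene that this rule takes is not reported here. Alternatives covered the kind of table, TPM denominator, thresholds, scaling, filters and each library alone.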

Additional observations from a re-analysis of the deposited data

How the results depend on the processing

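Depth limits the minor isoforms most: those with the alternative exons rest on 0 to 19.2 counts per library. No value past its threshold changed sign under any alternative. The median level of the 9 genes was 7.58 TPM, 7.35 to 7.80 with each library alone, 10.99 in the alignment-free tables and 17.2 with TPM taken over nuclear protein-coding genes only. The latter raised each gene by about the same factor (2.27 times), the former by 1.31 to 1.79 times. All 9 passed 0.5 TPM and 7 passed 5 TPM in both libraries. The median log2 ratio of 0.13 was 0.29 with spike-in scaling. The count of 1 gene past 1.5-fold was 0 with alignment-free counts, with no filter and at 2-fold. Over all genes 2618 lay past 1.5-fold, 3968 with alignment-free counts, 7334 with no filter, 471 at a mean of 100 counts and 997 past 2-fold. The median share of the leading transcript was 81.2%, 77.4% to 85.1% with each library alone, 74.2% in the alignment-free tables and 97.3% over protein-coding transcripts only. The latter restriction, applied to gene levels, was chosen after seeing the data and lowered Insr to 0.627 times its level; it moved Insr and Foxo4 by more than the spread between libraries. Over the levels, leading shares, ratios and order of the 9 genes, 40 of 147 alternative values moved and 107 did not. Moved means beyond the spread between libraries (levels and shares) or the 95% counting interval (ratios). Levels and shares from each library alone could not move, since with 2 libraries each lies within that spread of their mean. Restriction to protein-coding transcripts could not move genes whose transcripts are all coding. Such values are among the 107, so that count is not a measure of stability. Of the 9 genes, 7 kept their place in the order in the alignment-free tables. No paired analysis was possible because there is 1 group and no contrast.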

Other observations

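Other annotated genes overlap Igf1, Insr, Irs1, Irs2 and Foxo1. Gm38034, on the same strand as Foxo1, had 13 and 26 expected counts in replicates 1 and 2, and 9530052E02Rik, opposite Irs2, had 16 and 10. Gm20402, annotated as antisense to Foxo1, had 1 and 2 counts. Igf1os (at Igf1), Gm16180 and Vmn2r-ps88 (at Insr) and Gm9747 (at Irs1) had 0 counts in both libraries.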
